A study of Oryza sativa Japonica Group with 5 samples.

Results

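The 6 chitinase genes described here were Cht1 (Os06g0726200), Cht3 (Os06g0726100), Cht2 (Os05g0399300), Cht4 (Os04g0493400), Cht8 (Os10g0542900) and Os05g0399400, taken by identifier from the 36475 loci listed for each library of rice leaf RNA (Oryza sativa, Japonica Group). The groups were wild type, labelled as WT without knockdown (3 libraries), and the mutant pls4, labelled with knockdown as its treatment (2 libraries). All libraries were labelled as leaf and as mesophyll cells, the photosynthetic cells of the leaf interior. The gene altered in pls4, plant age, growth conditions and any inoculation are not named in the labels. Nothing states that replicates were separate plants, so a p-value here covers only the spread among the 5 libraries, part of which may be technical. The series title places the mutant in the context of rice sheath blight, a fungal disease, and of lowered defence genes.

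Chitinases cut chitin, the polymer of N-acetylglucosamine that stiffens fungal cell walls and that plants do not make. Plants secrete them or store them in the vacuole, and many are counted among the pathogenesis-related proteins because infection, wounding or defence hormones raise them. The chitin fragments they release are themselves sensed by receptors at the plant cell surface, which set off immune signalling through protein kinases and reactive oxygen.

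The 6 identifiers lie on 4 chromosomes: 6, 5, 4 and 10. In the RefSeq gene table (assembly ASM3414082v1) Cht3 and Cht1 are next to each other on chromosome 6, with the synonyms OsChia1c and OsChia1a. On chromosome 5 the table gives the order Cht2 (OsChia1b), Cht9, Cht7 (OsChia1d). The identifier Os05g0399400, paired with the name Cht7 in the member list, comes directly after that of Cht2 and before Os05g0399700, listed as Cht9. The identifiers and the table thus differ on which of these copies is Cht7, so Os05g0399400 is called by its identifier here. On chromosome 4, Cht4 (OsChia2b) is followed by Cht5 (OsChia4a), which is not one of the 6. Cht8 (OsChia2a) on chromosome 10 has no chitinase copy beside it among the listed genes.

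Levels are given as FPKM, fragment numbers corrected for the length of the gene and the size of the library, so that they can be compared between genes. Each library listed between 25856 and 26680 loci above 0 and between 18393 and 18538 loci at an FPKM of at least 1; read depth is unknown, and so is the number of fragments behind a low value. The expression of the 6 genes ranged from 0 to 500.5 FPKM. Cht8 and Cht1 were well expressed, Cht3 was near the lower limit, and Cht2, Cht4 and Os05g0399400 were at or close to 0 in both genotypes. Only Cht8 and Cht1 passed the filter on low values (2 or more libraries at an FPKM of 1 or above) and were tested. Cht8 rose in pls4 and Cht1 fell.

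**Figure D1:**
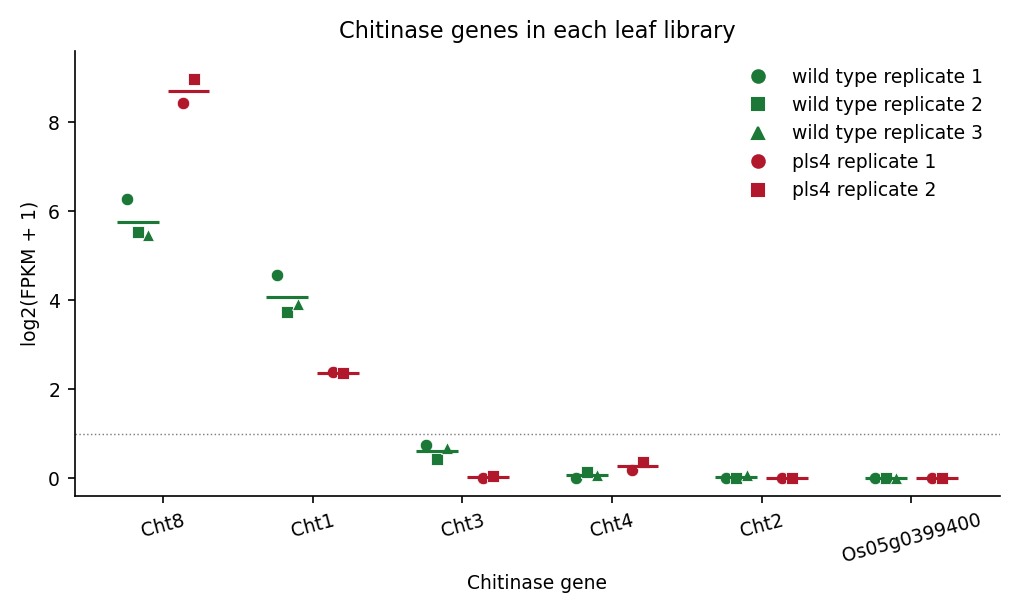
Level of the 6 chitinase genes as log2(FPKM + 1) in each of the 5 libraries, with wild type in green, pls4 in red, 1 symbol per replicate number, and a bar at the mean of each genotype; the dotted line marks an FPKM of 1. The pls4 points of Cht8 lie above all wild type points and those of Cht1 below them, while Cht3, Cht4, Cht2 and Os05g0399400 stay under the dotted line in every library.

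Cht8 was the most abundant of the 6 in every library. It stood at 76.1, 45.3 and 42.8 FPKM in wild type replicates 1, 2 and 3 and at 342 and 500.5 FPKM in pls4 replicates 1 and 2. The lowest pls4 library was several times above the highest wild type library, and the groups did not overlap. The mean went from 54.7 ± 18.5 (SD, n = 3) to 421 ± 112 (SD, n = 2), a 7.69-fold difference of the mean FPKM. On the log2(FPKM + 1) scale the change was 2.94 ± 0.26 (SE; limma, Benjamini-Hochberg adjusted p = 0.000123 over 19637 loci). Ranked by level among all listed loci, Cht8 was between position 1370 and 2452 in wild type and at positions 245 and 159 in pls4. Its change was the 148th highest of the 19637 tested. Of the 4 tested loci among the 10 flanking it, 1 was called higher and 2 lower, where 33.4% of all tested loci were higher and 18.5% lower.

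Cht1 moved the other way. It stood at 22.6, 12.2 and 14.1 FPKM in the wild type libraries and at 4.21 and 4.14 FPKM in the pls4 libraries. The pls4 libraries were nearly equal to each other and below every wild type library. The mean fell from 16.3 ± 5.5 (SD, n = 3) to 4.18 ± 0.05 (SD, n = 2), which is 25.6% of the wild type mean, with a log2 fold change of -1.69 ± 0.23 (limma, adjusted p = 0.000888). Its change was the 692nd lowest of those tested.

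Both tested genes were therefore called, 1 higher and 1 lower. This count is read against a background in which 52.0% of the 19637 tested loci were called at an adjusted p under 0.05 (33.4% of the tested loci higher and 18.5% lower in pls4), and in which the groups did not overlap at 69.9% of tested loci. After median ratio scaling of the libraries, 47.1% of all calls were higher instead of 64.3%. The median change of all tested loci was 0.15 on the log2 scale, small beside the changes of Cht8 and Cht1. After that scaling, which brought the median near 0, Cht8 changed by 2.77 and Cht1 by -1.84.

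Ratios between genes of the same library do not depend on how the libraries were scaled. The FPKM of Cht8 was 3.37, 3.70 and 3.05 times that of Cht1 in the wild type libraries and 81.2 and 121 times in the pls4 libraries. The ratio was steady within wild type and differed between the genotypes by 4.88 on the log2 scale. Its groups could not overlap, since Cht8 was higher and Cht1 lower in both pls4 libraries than in any wild type library. The outcome of its test was thereby fixed and adds nothing to the calls of the genes (exact permutation test, two-sided, p = 0.1, the smallest that 3 against 2 libraries allow). The summed FPKM of the 6 genes was 99.3, 58.0 and 57.6 in wild type and 346 and 505 in pls4. Cht8 made up 74.4% to 78.1% of that sum in wild type and 98.7% and 99.1% in pls4, while Cht1 went from between 21.1% and 24.4% to 1.22% and 0.82%.

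Cht3 is the neighbouring copy of Cht1. It stood at 0.67, 0.34 and 0.59 FPKM in wild type, was listed at 0 in pls4 replicate 1 and stood at 0.04 in pls4 replicate 2. Like Cht1 it was lower in both pls4 libraries than in any wild type library. Its level was far under that of Cht1, which was 33.7, 36.0 and 23.8 times as high in the wild type libraries. Among loci above 0 somewhere and under an FPKM of 1 throughout, the groups did not overlap at 30.0%. Cht3 did not reach the filter. When all loci above 0 in at least 1 library were tested, its change was -0.58 ± 0.11 (limma, adjusted p = 0.00953), in a fit where 13.3% of 29666 loci were called lower.

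Whether the 2 copies changed by different amounts could not be settled. On the log2(FPKM + 1) scale, Cht1 over Cht3 was 3.46 ± 0.32 (SD, n = 3) in wild type and 2.34 ± 0.05 (SD, n = 2) in pls4, a difference of -1.11 (exact permutation test, two-sided, p = 0.1, the smallest possible). Fitted over all pairs of adjacent loci without the filter, the difference was -1.11 ± 0.20 (limma, adjusted p = 0.00562), where 37.7% of 24334 pairs were called. With a pseudocount of 0.1 in place of 1, the difference was 0.49, in the opposite direction, and the raw ratio in pls4 could be formed in replicate 2 only, where it was 103.5. The labels do not say how reads shared by gene copies were assigned, so the split of reads between Cht1 and Cht3 is uncertain. Among the 10 loci flanking the pair, 5 on each side in identifier order, 4 were tested and none was called (limma, adjusted p under 0.05; 0 at an unadjusted p under 0.05), with a median change of 0.06.

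The copies on chromosome 5 gave almost no signal. Cht2 was listed at 0 in all libraries but wild type replicate 3, where it stood at 0.05 FPKM. Os05g0399400 was listed at 0 in all 5 libraries, and so was Os05g0399700, listed as Cht9. The question of which of these identifiers is Cht7 therefore changes no value, and no comparison between genotypes or between the copies could be made. Of 7 tested loci flanking this cluster, 3 were called higher and 2 lower, beside 33.4% and 18.5% of all tested loci.

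Cht4 stood at 0, 0.11 and 0.05 FPKM in wild type and at 0.14 and 0.28 in pls4. Both pls4 values were above all wild type values, at levels that may rest on very few fragments. Without the filter its change was 0.20 ± 0.07 (limma, adjusted p = 0.0881), not past the threshold. Its neighbour Cht5 was higher in wild type, at 1.23, 1.65 and 1.83 FPKM, and lower in pls4, at 0.15 and 0.10. Cht5 fell by 1.19 ± 0.14 on the log2(FPKM + 1) scale (limma, adjusted p = 0.000558). Its mean FPKM differed 12.6-fold, but its pls4 values may also rest on very few fragments. With pseudocounts of 0.1 and 5 it changed by -2.88 and -0.36, so the size of its fall is uncertain.

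In wild type the order of levels was Cht8, Cht1, Cht3, then Cht4, Cht2 and Os05g0399400. The first 3 did not overlap with each other, whereas Cht4, Cht2 and Os05g0399400 could not be told apart within the spread. In pls4 the order was Cht8, Cht1, Cht4, Cht3, with Cht2 and Os05g0399400 listed at 0; Cht3 lay below Cht4 there, at values too low to place them firmly.

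The remaining listed chitinase genes of the same enzyme family, glycoside hydrolase family 19, were Cht5, Cht6, Cht9 and Cht11. Of these 4, 3 were tested: 1 rose, 1 fell and 1 was not called, beside 33.4% of all tested loci higher and 18.5% lower. The gene that fell, Cht5, passed the filter only through the wild type libraries, which favoured a call lower. The median change was 0.06 beside 0.15 over all tested loci. Cht11 stood at 62.5, 46.2 and 56.9 FPKM in wild type and at 128 and 113 in pls4. It rose by 1.12 ± 0.13 on the log2 scale (limma, adjusted p = 0.000510), with no overlap between the groups. Cht6 was at 35.8, 22.7 and 25.8 FPKM in wild type and at 23.6 and 35.0 in pls4. Its groups overlapped throughout, and its change of 0.06 ± 0.22 did not pass the test (limma, adjusted p = 0.842).

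The FPKM of Cht8 relative to Cht6 and to Cht11 was higher in the pls4 libraries. Cht8 was 2.13, 2.00 and 1.66 times as high as Cht6 in wild type and 14.5 and 14.3 times in pls4. Cht8 was between 0.75 and 1.22 times as high as Cht11 in wild type, so that the 2 could not be ordered there, and 2.68 and 4.44 times in pls4. Cht1 was between 0.54 and 0.63 times as high as Cht6 in wild type and 0.18 and 0.12 times in pls4. Of the 5 such ratios computed, each had groups that did not overlap and an exact permutation p of 0.1, the smallest possible. All 5 had Cht8 or Cht1 as numerator, genes whose groups did not overlap on their own, as at 69.9% of tested loci. For Cht8 over Cht1 and for Cht1 over Cht11 the lack of overlap followed from the single genes, which moved in opposite directions. The 5 ratios are therefore not separate support. Over all 10 chitinase genes the summed FPKM was 199, 129 and 142 in wild type and 497 and 653 in pls4.

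**Figure D2:**
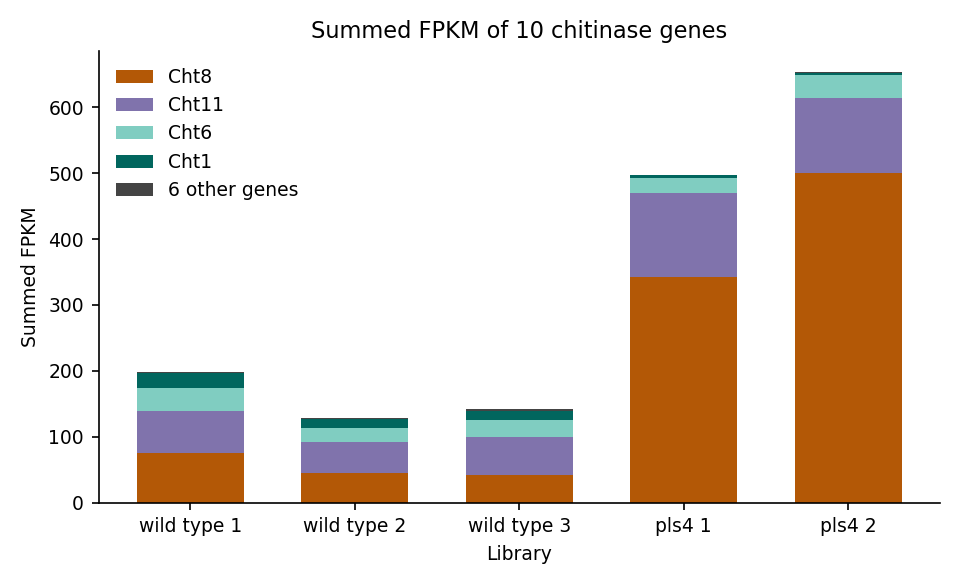
Summed FPKM of 10 chitinase genes in each library, stacked by gene; the 6 other genes are Cht2, Cht3, Cht4, Cht5, Cht9 and Os05g0399400. The sum lies between 129 and 199 in the wild type libraries and at 497 and 653 in the pls4 libraries, and the Cht8 segment grows from between 30.1% and 38.3% of the sum to 68.7% and 76.7%.

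Several chitinase genes also varied between libraries of the same genotype. Cht8 was 1.73 times and Cht1 1.72 times as high in wild type replicate 1 as in the mean of replicates 2 and 3. Over all tested loci the median of that ratio was 1.05, and 1.91% of loci were at or above the ratio of Cht8. Cht6, Cht11 and PBZ1 (Os12g0555500), a pathogenesis-related protein of the PR10 family induced by the plant activator probenazole, were also highest in wild type replicate 1. Cht5 went the other way and was lowest in wild type replicate 1. RBCS (Os12g0274700), which encodes the small subunit of the carbon-fixing enzyme Rubisco, was lowest there, at 9723 FPKM against 16673 and 15642. Between the pls4 libraries Cht8, Cht6 and PBZ1 were higher in replicate 2, by 1.46, 1.49 and 1.43 times, and RBCS was lower there, at 4906 against 6894. Cht1 was nearly equal in the pls4 libraries, and Cht11 and the weakly expressed Cht5 were lower in replicate 2. The difference between genotypes did not rest on wild type replicate 1: without it, Cht8 changed by 3.20 and Cht1 by -1.45.

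**Figure D3:**
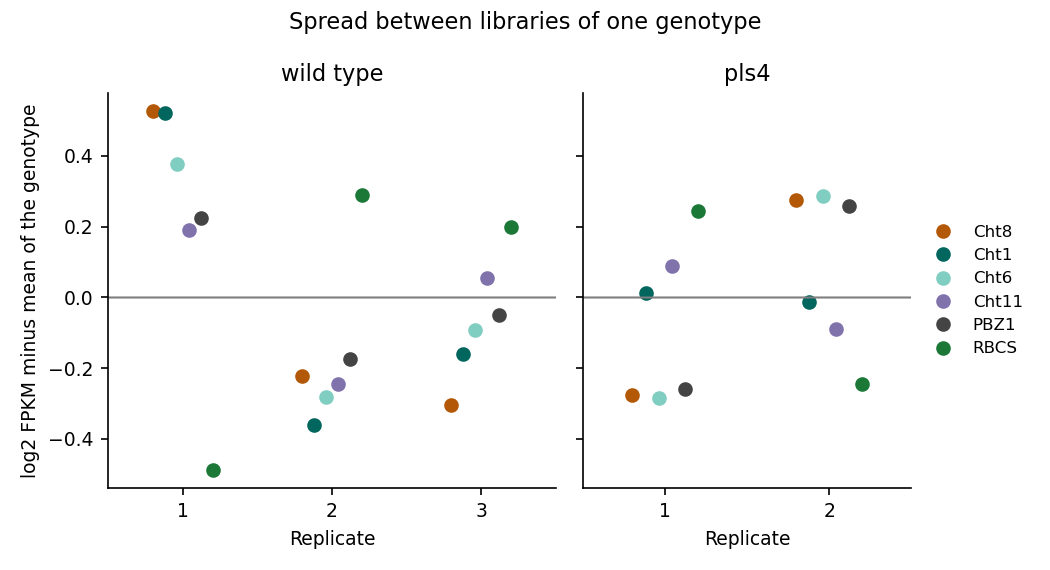
Level of 6 genes in each library as log2 FPKM minus the gene's mean over the libraries of the same genotype (left, wild type; right, pls4), offset sideways by gene. Cht8, Cht1, Cht6, Cht11 and PBZ1 are highest and RBCS lowest in wild type replicate 1; in pls4 replicate 2, Cht8, Cht6 and PBZ1 are high and RBCS is low.

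Genes that sense chitin and pass the signal on went both ways. Of 12 listed genes 10 were tested; 5 rose, 2 fell and 3 were not called, where 33.4% of all tested loci were higher and 18.5% lower. The median change was 0.35 beside 0.15 over all tested loci. CEBiP (Os03g0133400), the cell-surface protein that binds chitin fragments, stood at 43.3, 42.3 and 42.3 FPKM in wild type and at 70.1 and 78.1 in pls4, and rose by 0.78 ± 0.08 (limma, adjusted p = 0.000238). CERK1 (Os08g0538300), the receptor kinase that acts with CEBiP, was between 29.0 and 32.7 FPKM in wild type and at 36.8 and 32.7 in pls4, and did not pass the test (0.18 ± 0.09; limma, adjusted p = 0.143). MPK3 (Os03g0285800), a kinase of the signalling cascade downstream, rose by 0.99 ± 0.11 on the log2 scale. Os02g0787300, Os06g0208800 and Os05g0110900, listed loci whose symbols the RefSeq table lacks, rose by 0.60 ± 0.14, 0.55 ± 0.11 and 0.51 ± 0.08; without pls4 replicate 2, Os02g0787300 changed by 0.38. The kinase gene MPK6 (Os06g0154500; MAPK6 in the RefSeq table) and the GTPase gene Rac1 (Os01g0229400) did not pass, with changes of 0.14 ± 0.08 and -0.15 ± 0.15. RBOHB (Os01g0360200), an NADPH oxidase that makes reactive oxygen, fell from 126 ± 5 to 67.3 ± 3.0 FPKM (-0.90 ± 0.08; limma, adjusted p = 0.000103). LYP4 (Os09g0452200), a further chitin-binding protein, was under the filter, at 0.09 to 0.25 FPKM in wild type and 0.44 and 0.47 in pls4. The call of the lower locus Os05g0372100 was lost under 4 of 13 alternatives.

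Of 7 loci listed for other pathogenesis-related proteins, 6 were tested. Of these, 1 rose, 2 fell and 3 did not pass, a share of calls near the 52.0% of all tested loci. The median change was 0.49 beside 0.15 over all tested loci. PBZ1 was at 136, 103 and 112 FPKM in wild type and at 141 and 202 in pls4, with a change of 0.53 ± 0.17 (limma, adjusted p = 0.0380) whose call was lost under 8 of 13 alternatives. The remaining loci of this list have symbols that the RefSeq table lacks and are given by identifier. Os03g0300400 stood at 22.1, 17.6 and 19.5 FPKM in wild type and at 4.33 and 3.66 in pls4, and fell by 2.05 ± 0.12 (log2 scale; limma, adjusted p = 1.6e-05). Os05g0375400 fell by 0.53 ± 0.11. The 3 that did not pass were Os07g0129200, Os12g0628600 and Os12g0555000, with changes of 1.20 ± 0.56, 0.92 ± 0.48 and 0.46 ± 0.32. Their groups overlapped. Os07g0129200 stood at 0.99 to 1.68 FPKM in wild type and at 1.41 and 10.45 in pls4. Os12g0628600 stood at 54.7 to 144.7 FPKM in wild type and at 97.3 and 222.9 in pls4. The number called higher ranged from 0 to 3 over the alternatives.

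**Figure D4:**
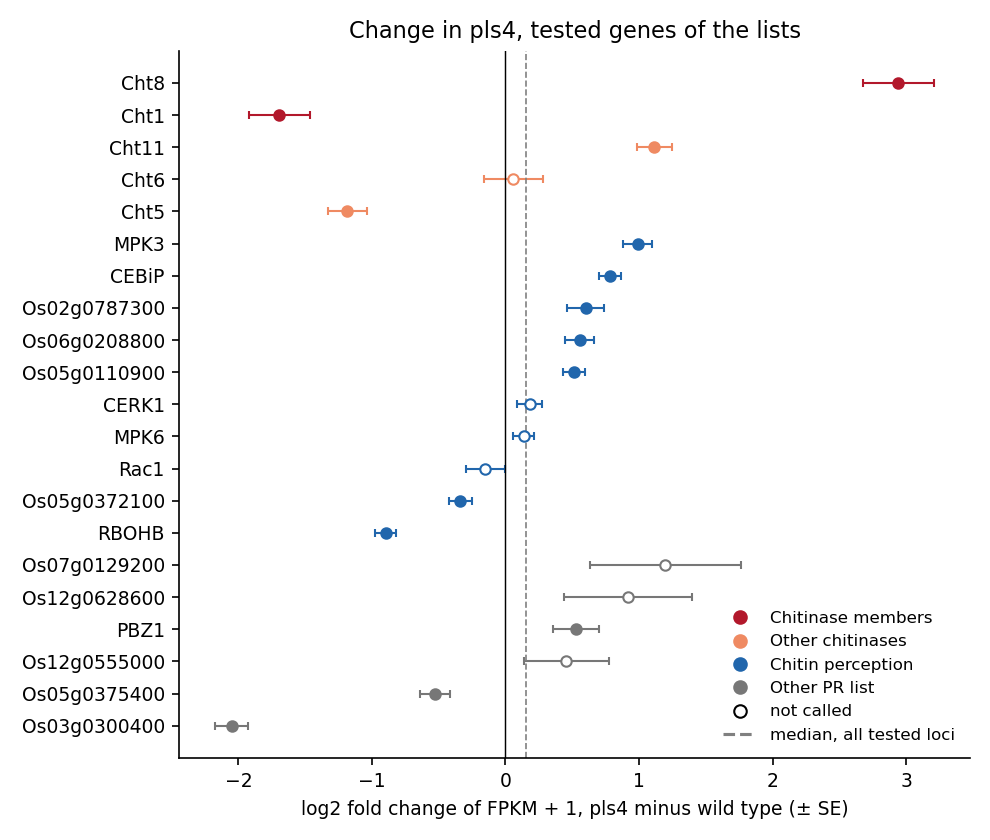
Change in pls4 for the tested genes of the 4 lists as log2 fold change of FPKM + 1 with its SE; filled points passed the test and open points did not, loci without a symbol in the RefSeq table are given by identifier, and the dashed line is the median of all tested loci (0.15). Cht8 has the highest value shown (2.94) and Os03g0300400 and Cht1 the lowest (-2.05 and -1.69).

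Likeness of pattern was measured as the Euclidean distance over the 5 libraries between log2(FPKM + 1) values, each taken relative to the gene's wild type mean, among 37 other tested genes of the lists. Nearest to Cht1 were Os03g0300400 (distance 0.66) and the antenna protein gene Lhcb1 (Os01g0600900; CAB2R in the RefSeq table; 1.04). Nearest to Cht8 were CESA7 (Os10g0467800) and CESA9 (Os09g0422500), cellulose synthases of the secondary wall, at the larger distances of 1.99 and 2.30. On the log2(FPKM + 1) scale no listed gene rose as far as Cht8. This does not hold on every scale, since CESA7 was under an FPKM of 1 in wild type. The mean FPKM of CESA7 differed 9.48-fold, against 7.69-fold for Cht8. With a pseudocount of 0.1 the changes were 2.99 for CESA7 and 2.97 for Cht8. Between libraries of 1 genotype CESA7 and CESA9 went the opposite way to Cht8. Wild type replicate 1 was 0.60 and 0.52 times the mean of replicates 2 and 3, against 1.73 times for Cht8. In pls4, replicate 2 was 0.49 and 0.47 times replicate 1, against 1.46 times for Cht8.

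Markers of cell types moved with the genotype too. The summed FPKM of 5 mesophyll markers was 28886 to 39986 in wild type and 14830 and 19183 in pls4, and all 5 were called lower (3 with the replicate block and with no filter, 2 after quantile normalization). The summed FPKM of 4 markers of vascular tissue and secondary walls was 2.40 to 4.19 in wild type and 11.3 and 23.7 in pls4. All 4 were called higher, where 33.4% of all tested loci were higher and 18.5% lower. CESA7 and CESA9 were under an FPKM of 1 in every wild type library. They passed the filter only through pls4, which favoured a call higher. With either pls4 library left out neither was tested. CESA4 (Os01g0750300) and BC1 (Os03g0416200) changed by 1.03 and 0.65 without pls4 replicate 1, and by 1.89 and 1.55 without replicate 2. The sum of 3 markers of epidermis and wax was 16.9 to 22.0 and 35.4 and 36.2, with 3 called higher. The call of Os09g0426800 was lost with median ratio scaling, and that of Os06g0598800 with the replicate block. Os09g0426800 changed by 0.39 without pls4 replicate 1, against 0.42 with all libraries. Os06g0598800 changed by 0.42 without pls4 replicate 2, against 0.53. The 3 markers of dividing cells went different ways, with summed FPKM of 24.1 to 25.4 and 28.4 and 28.6. CDKB1;1 (Os01g0897000) was called higher, with means of 8.83 and 15.8 FPKM, while MCM2 (Os11g0484300) was called lower, with means of 1.26 and 0.135. MCM2 passed the filter only through wild type, which favoured a call lower, and was close to 0 in pls4 (0.19 and 0.08 FPKM). PCNA (Os02g0805200) was at 14.6 ± 0.6 and 12.5 ± 0.5 and was called lower only with median ratio scaling and quantile normalization. The single seed marker was at 3.60 to 4.88 and 3.89 and 4.79. Of the root markers LSI2 was listed at 0 in every library, and LSI1 stood at 11.4 to 14.6 and 16.6 and 20.1. LSI1 was called higher, with a change of 0.42 ± 0.14 (limma, adjusted p = 0.0370). Its call was lost under several alternatives, among them no filter, median ratio scaling, quantile normalization and the replicate block. In bulk leaf RNA, a change in the number of cells of a type and a change in RNA per cell cannot be told apart; the part of cell composition in the changes of Cht8 and Cht1 was not tested.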

How the data were processed

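The deposited files hold FPKM values per the file headers, with a file for each of the 5 libraries. The submitters' processing notes name TopHat2 (version 2.1.1) and the build IRGSP-1.0; counting tool, annotation and between-library scaling: not given in the sources used here. Libraries were grouped by their titles. Fold changes (pls4 minus wild type) were computed on log2(FPKM + 1) with limma 3.58.1 in R 4.3.3, with a variance trend, over loci that reached an FPKM of 1 in 2 or more libraries, Benjamini-Hochberg adjusted over all of them; a call is an adjusted p under 0.05. The procedure was tested on simulated data. Ratios were compared by exact permutation over libraries. Members and lists were chosen with earlier results of these data known, and the lists' symbols were recalled from the rice literature. Each symbol was compared with its chromosome and relative gene order in the RefSeq table (tolerance 0.05 of the chromosome). All 6 member names agreed within it, as did 24 of 42 other pairs, while 1 disagreed and was dropped, and 17 symbols were not found. This tolerance cannot tell neighbouring copies apart. Os05g0399400 as Cht7 agreed within it although the order of the copies on chromosome 5 differs. Named were all members and, per list, up to 6 called loci with the largest changes and loci at 0 in a group. Cht6, CERK1, MPK6, Rac1, LYP4, Os05g0372100, Os07g0129200, Os12g0628600 and Os12g0555000 were added after their values were seen. No sequence is shown.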

Additional observations from a re-analysis of the deposited data

How the results depend on the processing

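The calls of Cht8 and Cht1 held under all 13 alternatives (other pseudocounts, filters and scalings, no variance trend, the replicate block, and each library left out), with changes of 2.67 to 3.22 and -1.89 to -1.18 and adjusted p-values (limma) up to 0.00126 and 0.00511. With 1 library left out they were 2.67 to 3.22 and -1.86 to -1.45; 1 member was called higher and 1 lower each time, and the change of Cht1 over Cht3 was -1.22 to -0.93. A pseudocount of 0.1 turned that change to 0.49. With no filter 2 members were called lower, since Cht3 was then tested. Over all loci, 6566 were called higher and 3642 lower, against 4284 higher with median ratio scaling, and 3997 to 6794 higher and 2894 to 3433 lower with 1 library left out (the lowest without pls4 replicate 2). Os12g0291100, a listed mesophyll marker, stood at 0.018 after quantile normalization against -0.65; the cause was not tested. Cht5 changed by -2.88 and -0.36 with pseudocounts of 0.1 and 5. The labels name nothing that libraries of equal replicate number share. Deviations of same-numbered libraries from their group means correlated at -0.09 and -0.14 over loci. The deviations of the 2 pls4 libraries mirror each other, so these correlations cannot show whether a day or batch was shared. With the replicate block Cht8 changed by 2.79 and Cht1 by -1.77, and 4408 loci were called higher and 2886 lower. With 1 pls4 library, its spread was assumed to be that of wild type. Read depth is unknown, so values near 0 carry no counting error here.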
